A study of Mus musculus with 4 samples.

Results

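The ion and bicarbonate solute carrier genes were taken from the deposited table of expression values as every gene whose symbol belongs to the families Slc4, Slc8, Slc9, Slc12, Slc20, Slc24, Slc26 or Slc34. The rule uses names alone and found 53 rows with 52 symbols among 46072 genes, since Slc26a6 is listed under 2 gene identifiers. The study measured poly(A) RNA from vessels of the mouse brain that the labels name as endothelial cells cut out by laser capture, in which a laser cuts marked cells from a tissue section. All 4 libraries came from wild-type, untreated animals and form 1 group, here replicates 1 to 4. The series title adds that the tissue was fixed by perfusion and the cells were found by immunolabelling, and the labels give no age or sex. Whether each library is a separate animal or a pool is not stated.

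These carriers move inorganic ions across cell membranes by coupling the ions to each other. Slc4 proteins carry bicarbonate, either in exchange for chloride or together with sodium, and Slc9 proteins exchange sodium for protons, so both families set the pH of cells and organelles. Slc12 proteins carry chloride with sodium or potassium, Slc8 and Slc24 proteins remove calcium in exchange for sodium, Slc20 and Slc34 proteins take up phosphate with sodium, and Slc26 proteins exchange chloride, bicarbonate, sulfate and other anions. In the brain they are known for setting neuronal chloride, for calcium removal at synapses, for bicarbonate uptake by astrocytes and for fluid secretion by the choroid plexus.

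Values are FPKM, fragments per kilobase of transcript scaled to the mapped fragments of the library, so levels are stated per length. Library positions still varied with transcript length, as described below, so comparisons of genes of unlike length are less certain. The sum over all genes was 448678 to 482882 FPKM per library, and 13344 to 13866 genes reached 1 FPKM. FPKM without counts leaves the depth unknown, and intervals for counting error cannot be given. Median levels of marker lists ranged over the libraries from 3.51 to 5.32 FPKM for 17 general endothelial genes, from 94.4 to 107 for 12 neuronal genes and from 86.6 to 104 for 9 astrocyte genes. They were 80.9 to 96.5 FPKM for 9 oligodendrocyte genes, 17.4 to 29.1 for 7 choroid plexus genes, 17.7 to 23.6 for 9 genes of mural cells and 25.2 to 35 for 8 microglial genes. Genes of the choroid plexus list spanned a wide range, from Aqp1 at 3.32 to 6.64 FPKM to Ttr at 11398 to 16782. Of the 17 endothelial genes 14 lay above 1 FPKM in the test described below, as did 47.7% of all genes tested. Erg lay below it at a mean of 0.368 FPKM, and Cdh5 and Vwf passed in neither direction. RNA of most markers of the labelled cell type was thus present, but the lists of markers of other brain cells had higher medians in every library. No gene of these lists was listed at 0 in all 4 libraries. Which cells gave the carrier RNA was not tested, and in bulk samples fewer cells of a type and less RNA per cell cannot be told apart.

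Carriers of bicarbonate, chloride, protons, phosphate and calcium were each represented by members well above 1 FPKM. The 5 members listed at 0 included Slc12a3 and Slc34a1, known from the kidney. They also included an identifier of Slc26a6, whose other identifier lay above 1 FPKM. Each gene was tested on the scale log2(FPKM + 1) against 1 FPKM with limma, with Benjamini-Hochberg adjustment over 25206 genes and a threshold of 0.05. Of the 53 members, 26 lay above 1 FPKM, 17 lay below it, 5 passed in neither direction, and 5 were listed at 0 in every library and not tested. Over all genes tested, 47.7% lay above and 40.1% below, so the shares of the members are close to those of the table. Such p-values reflect the spread among these 4 libraries alone, and that spread may be technical. With every library rescaled to the same sum, which raised the median of the tested genes by 0.73 on the log2 scale, 30 members lay above and 10 below. The 7 that were no longer called below were Slc4a11, Slc8a2, Slc9a2, Slc12a8, Slc26a4, Slc26a7 and Slc26a8. Of these Slc4a11, Slc12a8, Slc26a4 and Slc26a8 kept their sign (limma, adjusted p = 0.19, 0.284, 0.499 and 0.334 after rescaling).

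The level was concentrated in few genes. The summed level of all members was 276 FPKM in replicate 1, 193 in replicate 2, 268 in replicate 3 and 221 in replicate 4, or 0.0516% ± 0.00923 (SD, n = 4) of all FPKM. The 13 members whose mean reached 5 FPKM held 76.8% of it, and Slc4a10 and Slc12a5 together held 23.8%. By family, Slc4 summed to 77.2 ± 14.2 FPKM over 10 genes, Slc12 to 59.9 ± 11.7 over 9, Slc9 to 32.7 ± 6.90 over 9 and Slc20 to 29.9 ± 4.16 over 2 (SD, n = 4 each). Slc24 summed to 24.8 ± 2.79 FPKM over 5 genes, Slc26 to 9.40 ± 1.13 over 12 and Slc8 to 5.68 ± 1.73 over 3, and the 3 Slc34 genes did not exceed 0.188 FPKM together in any library.

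**Figure D1:**
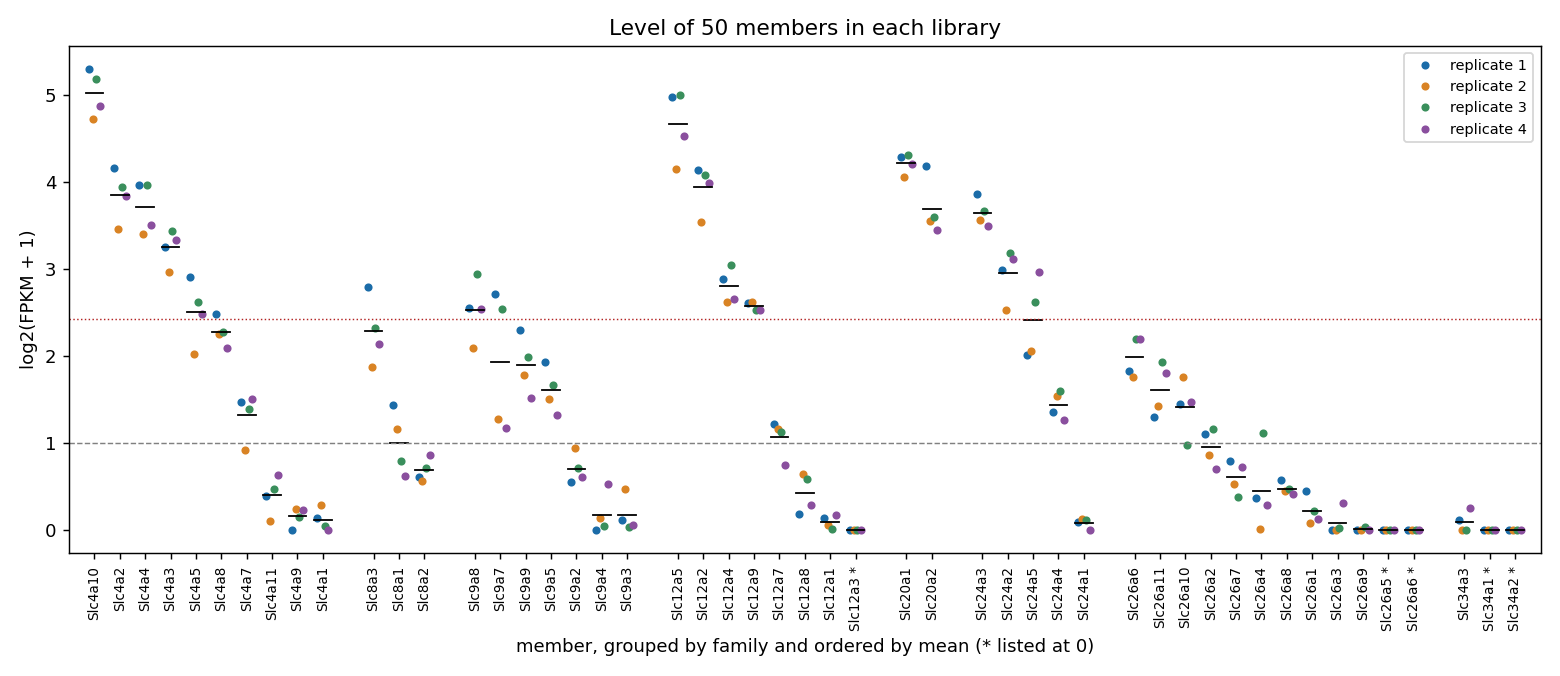
Level of 50 members as log2(FPKM + 1), 1 point per library and a black bar for the mean, grouped by family. The dashed line marks 1 FPKM and the dotted line the mean over libraries of the pan-endothelial median. Slc4a10 and Slc12a5 are the highest, and all 3 Slc34 genes lie near or at 0.

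Against the median of the 17 general endothelial genes in the same library, the 13 members above 5 FPKM lay higher, 29 members lay lower and 6 passed in neither direction. The background over all genes was 30.8% above and 60.6% below. In that fit every gene has the same reference subtracted, and limma estimated infinite prior degrees of freedom, so that its test used the fitted spread in place of the gene's own. With the prior degrees of freedom of the test against 1 FPKM (2.0), an alternative chosen after seeing the data, 13 members lay above (29.7% of all genes) and 27 below (59.3%). Slc26a6 and Slc9a7 were the 2 members that lost the call (adjusted p = 0.0549 and 0.133).

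The promoters of a few members are shown because Slc4a10 and Slc12a5 were the 2 highest members and Slc34a1 and Slc34a2 were phosphate carriers listed at 0. In mammals, promoters rich in the base pair step CG are known to be active in many cell types. Promoter windows of RefSeq (GRCm38.p6, 250 bases before to 50 after a start) were matched by symbol for 39 of the 52 symbols. A window was called CG-rich at an observed over expected CG ratio of at least 0.6 and at least 50% G and C, which 33.5% of 32851 windows of the same length met. CG reads the same on both strands. The stretches below hold the part of a window before the start that no annotated exon covers, 5′ to 3′ on the strand of the gene, with every CG in capitals. Slc4a10 and Slc12a5 each have a start at the 5′ end of the gene and one further inside it. The stretches are Slc4a10 outer (chr2:62046265-62046461, plus strand) and inner (chr2:62147628-62147861, plus strand), Slc12a5 outer (chr2:164960596-164960801, plus strand) and inner (chr2:164967738-164967982, plus strand), Slc34a1 (chr13:55399398-55399647, plus strand) and Slc34a2 (chr5:53049189-53049351, plus strand).
Slc4a10 outer: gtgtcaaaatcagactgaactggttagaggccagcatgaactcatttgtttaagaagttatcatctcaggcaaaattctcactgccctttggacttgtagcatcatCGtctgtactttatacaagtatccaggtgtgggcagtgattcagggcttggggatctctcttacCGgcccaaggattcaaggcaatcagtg
Slc4a10 inner: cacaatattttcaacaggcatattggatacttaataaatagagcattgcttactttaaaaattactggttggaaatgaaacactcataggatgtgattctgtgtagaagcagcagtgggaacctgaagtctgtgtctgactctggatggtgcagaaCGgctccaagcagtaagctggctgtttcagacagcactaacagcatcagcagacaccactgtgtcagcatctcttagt
Slc12a5 outer: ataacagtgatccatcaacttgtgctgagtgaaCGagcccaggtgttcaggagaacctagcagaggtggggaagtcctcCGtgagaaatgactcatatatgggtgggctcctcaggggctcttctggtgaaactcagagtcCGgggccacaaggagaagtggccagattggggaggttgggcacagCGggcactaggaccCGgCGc
Slc12a5 inner: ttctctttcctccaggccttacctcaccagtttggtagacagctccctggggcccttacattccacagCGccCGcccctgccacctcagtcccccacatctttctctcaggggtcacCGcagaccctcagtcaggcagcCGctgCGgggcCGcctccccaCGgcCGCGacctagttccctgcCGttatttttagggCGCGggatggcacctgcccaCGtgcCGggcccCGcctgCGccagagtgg
Slc34a1: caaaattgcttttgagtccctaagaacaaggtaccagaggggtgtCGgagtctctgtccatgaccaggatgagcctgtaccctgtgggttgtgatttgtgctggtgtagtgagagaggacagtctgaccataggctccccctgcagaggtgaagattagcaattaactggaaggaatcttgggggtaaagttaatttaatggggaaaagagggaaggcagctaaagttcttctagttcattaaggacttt
Slc34a2: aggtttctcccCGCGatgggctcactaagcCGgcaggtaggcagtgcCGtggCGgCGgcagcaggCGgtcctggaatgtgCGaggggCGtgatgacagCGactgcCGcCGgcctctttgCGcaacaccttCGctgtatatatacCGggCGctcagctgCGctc

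The outer stretch of Slc4a10, the highest member, held 2 CG in 197 bases and the inner one 1 in 234 bases. The outer stretch of Slc12a5, the next highest, held 6 CG in 206 bases and the inner one 16 in 245 bases. The whole windows of Slc12a5, of which these stretches are a part, each held 21 CG and were CG-rich. The stretch of Slc34a1 held 1 CG in 250 bases and that of Slc34a2 held 17 in 163 bases, and both genes were listed at 0 in all 4 libraries. At least 1 CG-rich window was found for 15 of 24 matched members whose mean reached 1 FPKM (62.5%) and for 3 of 15 members under it (20%). Over the whole table, with no chromosome left out, the same shares were 72.6% of 9808 genes and 16.9% of 8610 genes. Slc4a10 and Slc4a5 were the highest matched members without such a window, and Slc9a3, Slc34a2 and Slc26a5 were the 3 low members with it. The members thus split much as all genes did, and these shares are a description with no test.

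**Figure D2:**
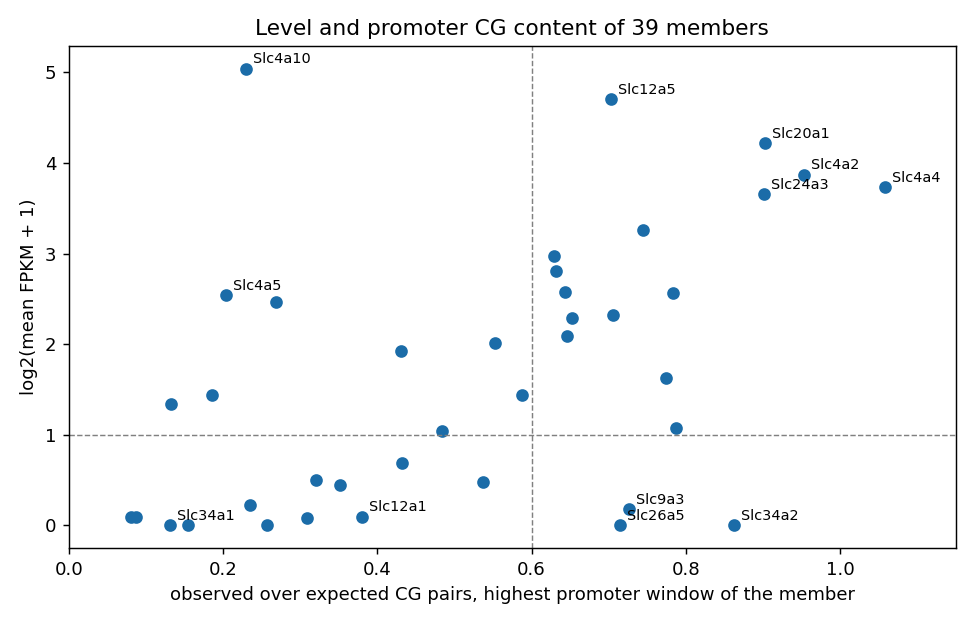
Mean level as log2(FPKM + 1) of 39 members against the observed over expected CG ratio of their most CG-rich promoter window, 1 point per member. Dashed lines mark a ratio of 0.6 and 1 FPKM. Slc4a10 stands at the top left, while Slc34a2 and Slc26a5 lie at 0 with a high ratio.

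Bicarbonate carriers of the Slc4 family were led by a sodium-driven exchanger. Slc4a10, which carries sodium and bicarbonate in neurons and choroid plexus (ENSMUSG00000026904, chromosome 2, 62046462 to 62326730, GRCm38), measured 38.4, 25.5, 35.4 and 28.4 FPKM in replicates 1 to 4. It was the highest member in each of the 4 libraries and ranked 2361 among all genes by its mean. On the log2(FPKM + 1) scale its distance above 1 FPKM was 4.02 ± 0.11 (SE; limma, adjusted p = 1.15e-06). Slc4a4, the electrogenic sodium bicarbonate cotransporter best known from astrocytes (chromosome 5, 88886818 to 89239653), measured 14.7, 9.59, 14.6 and 10.4 FPKM. Replicates 1 and 3 were the higher libraries for both genes. Slc4a5, a related electrogenic carrier of the choroid plexus, measured 6.5, 3.07, 5.16 and 4.58 FPKM and passed in neither direction against the pan-endothelial median.

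The sodium-independent anion exchangers of the family came next. Slc4a2, the widely expressed anion exchanger 2, measured 16.9, 9.97, 14.3 and 13.4 FPKM. Slc4a3, anion exchanger 3 of excitable cells, measured 8.57, 6.83, 9.87 and 9.11 FPKM. In each library Slc4a2 was the higher, though its exons share 1141 bases with Fastk on the opposite strand (31.9 ± 2.95 FPKM, SD, n = 4), and the labels do not state a strand setting, so its value is uncertain. Slc4a8, a sodium-driven chloride bicarbonate exchanger, had a mean of 3.87 ± 0.549 FPKM, and Slc4a7, an electroneutral sodium bicarbonate cotransporter, measured 1.78, 0.892, 1.61 and 1.84 FPKM and did not pass against 1 FPKM (limma, adjusted p = 0.0893). That test passed without replicate 2 (adjusted p = 0.0267). Below 1 FPKM lay Slc4a11, known from the cornea, at 0.0776 to 0.546 FPKM, Slc4a9 at 0 to 0.183 and Slc4a1, band 3 of erythrocytes, with 0.0969, 0.221, 0.0368 and 0 FPKM. The median of 6 erythroid genes was 250 to 420 FPKM in the same libraries.

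Of the chloride carriers of the Slc12 family, the exporter of neurons exceeded the importer. Slc12a5, the potassium chloride cotransporter KCC2 that keeps neuronal chloride low (ENSMUSG00000017740, chromosome 2, 164960802 to 164999731, GRCm38), measured 30.4, 16.8, 31.0 and 22.2 FPKM. Slc12a2, the sodium potassium chloride cotransporter NKCC1 that loads cells with chloride (ENSMUSG00000024597, chromosome 18, 57878678 to 57946821), measured 16.6, 10.6, 16.0 and 14.9 FPKM. Slc12a5 lay above Slc12a2 in 4 of 4 libraries, and the gap was widest in replicate 3. On the log2 scale Slc12a2 was lower by a difference of -0.73 ± 0.18 (SD, n = 4; limma with the finite prior, adjusted p = 0.0118). The levels of the genes did not overlap over the 4 libraries, but the highest of Slc12a2 and the lowest of Slc12a5 were close, in replicates 1 and 2.

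Slc12a4 and Slc12a7, which also carry potassium with chloride, were lower than Slc12a5 in each library. Slc12a4, KCC1, measured 6.37, 5.17, 7.25 and 5.29 FPKM. Slc12a7, KCC4, measured 1.34, 1.24, 1.19 and 0.675 FPKM and passed in neither direction against 1 FPKM (limma, adjusted p = 0.642). Slc12a4 lay above the pan-endothelial median, a call that was lost in the original fit without replicate 1, 2 or 4 (adjusted p = 0.0782, 0.0512 and 0.0696). Slc12a9, a family member whose transport role is less settled, had the smallest relative spread of the 30 members whose mean reached 1 FPKM, at 5.09, 5.16, 4.78 and 4.78 FPKM. Slc12a8 lay below 1 FPKM at 0.139 to 0.566. The kidney salt carriers of the family were at the bottom: Slc12a1, NKCC2, measured 0.0989, 0.0385, 0.00870 and 0.129 FPKM, and Slc12a3, the thiazide-sensitive carrier, was listed at 0 in all 4 libraries.

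Of the 9 Slc9 sodium proton exchangers, 6 lay above 1 FPKM and 3 below, beside 47.7% and 40.1% of all genes tested. Several of those above act in organelles. Slc9a8 had a mean of 4.90 ± 1.39 FPKM, Slc9a9 of late endosomes 2.80 ± 0.876 and Slc9a7 of the Golgi 3.27 ± 2.24 (SD, n = 4).

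Slc9a7 had the widest relative spread among the 30 members whose mean reached 1 FPKM. It measured 5.57 FPKM in replicate 1 and 4.81 in replicate 3, but 1.43 in replicate 2 and 1.26 in replicate 4. Its coefficient of variation was 68.7%, against a median of 22.3% for these members. Its call above 1 FPKM (limma, adjusted p = 0.0427) was lost whichever library was left out, with adjusted p of 0.179, 0.0649, 0.187 and 0.0551 without replicates 1 to 4. Slc9a5, a brain exchanger, measured 1.5 to 2.82 FPKM, and its call above 1 FPKM was lost without replicate 3 (adjusted p = 0.0507). The exchangers known from gut and kidney epithelium lay below 1 FPKM. They were Slc9a2 at 0.463 to 0.923, Slc9a3 at 0.0271 to 0.384 and Slc9a4 at 0 to 0.443 FPKM. The call of Slc9a2 was lost without replicate 1, 3 or 4 (adjusted p = 0.101, 0.0822 and 0.105).

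The calcium exchangers that also carry potassium, Slc24, had a higher summed level than Slc8 in each library. Slc24a3 measured 13.5, 10.8, 11.7 and 10.3 FPKM, and Slc24a2, known from neurons, measured 6.92, 4.79, 8.08 and 7.69. In every library Slc24a3 was the higher. Slc24a4 had a mean of 1.72 ± 0.293 FPKM (SD, n = 4), and its call above 1 FPKM was lost without replicate 2 or 3 (adjusted p = 0.0567 and 0.0556). Slc24a1 of rod photoreceptors lay at 0 to 0.0906 FPKM.

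The Slc8 exchangers, which need no potassium, were low. Slc8a3 measured 5.95, 2.68, 4.01 and 3.39 FPKM. Slc8a1, the exchanger known from heart, measured 1.71, 1.24, 0.732 and 0.534 FPKM, on both sides of 1 FPKM (limma, adjusted p = 0.986). Slc8a2, known from brain, measured 0.529, 0.474, 0.635 and 0.816 FPKM and lay below 1 FPKM (adjusted p = 0.0153), a call lost without replicate 1 (adjusted p = 0.0533). With every library rescaled to the same sum it no longer passed (limma, adjusted p = 0.222). Slc8a3 was thus the highest of the family in 4 of 4 libraries. The longest annotated transcript of Slc8a1 has 18464 bases, the longest of the 30 members whose mean reached 1 FPKM.

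Slc24a5, a calcium exchanger of pigment granules, measured 3.05, 3.16, 5.15 and 6.81 FPKM. It was the only one above 1 FPKM among 17 members listed here as known mainly from tissues other than brain. Its exons share 921 bases with Myef2, which lies on the opposite strand and measured 10.5, 10.3, 10.9 and 13.6 FPKM, with its highest value also in replicate 4. Because the strand setting is not stated, the value of Slc24a5 is uncertain and reads of both genes cannot be told apart. Of the other 16 such members, 12 lay below 1 FPKM and 4 were listed at 0. The shares of all genes tested were 47.7% above and 40.1% below. The 17 members were chosen with earlier results of these data known. They leave out Slc4a11, Slc8a1 and Slc9a2, also described here by other tissues, so these counts depend on the choice.

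Both sodium phosphate cotransporters of the Slc20 family were among the 8 highest members. Slc20a1, PiT1, measured 18.5, 15.7, 18.9 and 17.5 FPKM. Slc20a2, PiT2, whose loss causes calcification of brain vessels in people (ENSMUSG00000037656, chromosome 8, 22476788 to 22569612, GRCm38), measured 17.2, 10.7, 11.1 and 9.90 FPKM. Slc20a1 was the higher in each library, by the least in replicate 1, where Slc20a2 was at its highest. The exons of Slc20a2 share 95 bases with Smim19 on the opposite strand (31.4 ± 4.81 FPKM). Those of Slc20a1 share 452 bases with 9830144P21Rik and 280 with Gm4430, also on the opposite strand (means of 0.158 and 3.60 FPKM). The other phosphate family, Slc34, was the lowest of the 8 families: Slc34a1, the carrier of the kidney, and Slc34a2 were listed at 0 in all libraries, and Slc34a3 was at 0.0856, 0, 0 and 0.188 FPKM.

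The anion exchangers of the Slc26 family were numerous and low. Of 12 rows, 2 lay above 1 FPKM, 6 below, 2 in neither direction and 2 were listed at 0. The shares over all genes tested were 47.7% above and 40.1% below. Slc26a6, an exchanger of chloride, oxalate and bicarbonate, had the highest mean, with 2.57, 2.38, 3.59 and 3.57 FPKM, although Slc26a10 was as high in replicate 2, and its other identifier was listed at 0 throughout. Slc26a11 measured 1.46 to 2.81 FPKM, with its call above 1 FPKM lost without replicate 3 or 4 (adjusted p = 0.0552 and 0.0692). Slc26a10 at 0.967 to 2.39 FPKM and the sulfate carrier Slc26a2 at 0.623 to 1.24 passed in neither direction. Slc26a10 passed as above it without replicate 3 (adjusted p = 0.0264), and it shares 715 exon bases with B4galnt1 on the opposite strand (23.1 ± 1.39 FPKM), so its value is uncertain.

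The remaining Slc26 genes lay below 1 FPKM or at 0. Slc26a7 measured 0.300 to 0.737, Slc26a8 of testis 0.330 to 0.487, the sulfate carrier Slc26a1 0.0550 to 0.363 and Slc26a3 of the gut 0 to 0.238 FPKM. Slc26a9 was above 0 in replicate 3 alone, at 0.0238 FPKM. Slc26a4, pendrin of the inner ear and thyroid, was at 0.291, 0.0112, 1.16 and 0.221 FPKM, so replicate 3 held most of it. Its call below 1 FPKM was lost without replicate 1, 2 or 4 (adjusted p = 0.151, 0.154 and 0.158), and that of Slc26a7 without replicate 2 (adjusted p = 0.0513). Slc26a5, prestin of cochlear hair cells, was listed at 0 in all libraries.

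Members that carry the same ion by opposed or alternative routes were compared within each library in 12 pairs. In 11 pairs the same member was higher in 4 of 4 libraries, and these 11 passed the test, with p-values adjusted over genes and then over the 12 pairs. In the original fits, 22112 to 24123 of 25205 genes passed against the second member of a pair by the adjustment over genes. Most genes of the table thus passed too, and the count of pairs is not particular to the carriers. The same 11 pairs passed with the finite prior, whose p-values follow for 9 of the pairs. Slc4a7 lay at -3.70 ± 0.22 from Slc4a10 (SD, n = 4, log2(FPKM + 1) scale; limma adjusted p = 5.46e-05), the widest gap of the 12. Slc4a4 lay at -1.31 ± 0.06 from Slc4a10 (limma adjusted p = 0.000371), and this gap varied least between libraries. Slc4a2 lay 0.60 ± 0.20 above Slc4a3 (limma adjusted p = 0.00924).

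Of the calcium and phosphate pairs all but 1 passed as well. Slc24a2 lay at -0.69 ± 0.31 from Slc24a3 (SD, n = 4; limma adjusted p = 0.00924), and Slc20a2 at -0.52 ± 0.30 from Slc20a1 (limma adjusted p = 0.0171), with replicate 1 at -0.099. The longest annotated transcript of Slc24a2 has 10531 bases and that of Slc24a3 4048, and the part of length in the pairs was not tested. Slc8a2 and Slc8a1 lay at -1.6 ± 0.42 and -1.28 ± 0.38 from Slc8a3 (limma adjusted p = 0.00278 and 0.00472). The exception was Slc8a1 against Slc8a2, with a difference of 0.32 ± 0.49, higher in 3 of 4 libraries and not past the threshold (limma adjusted p = 0.229, or 0.0856 in the original fit). Without replicate 4, where the sign was the opposite, the original fit gave 0.50 (adjusted p = 0.0262).

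**Figure D3:**
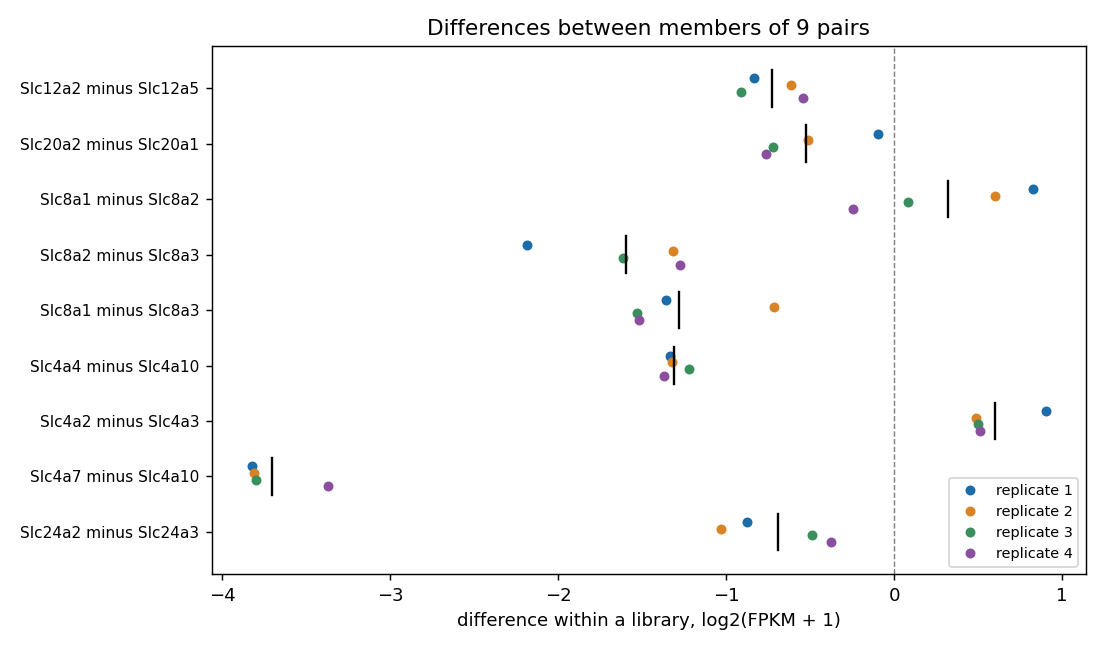
Difference between the first and the second member of 9 pairs within each library, in log2(FPKM + 1), with 1 point per library and a black bar for the mean. Only the points of Slc8a1 minus Slc8a2 lie on both sides of 0, from -0.24 to 0.83.

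The members did not spread evenly over the libraries. Of the 30 members whose mean reached 1 FPKM, 14 had their highest value in replicate 1, 2 in replicate 2, 12 in replicate 3 and 2 in replicate 4. The lowest value fell in replicate 1 for 2 members, in replicate 2 for 15, in replicate 3 for 2 and in replicate 4 for 11. The median member lay at 0.21, -0.28, 0.14 and -0.18 from its own mean in replicates 1 to 4 (log2 of FPKM over the mean). Over all 13599 genes at that level with an annotated length, the same medians lay between -0.0262 and -0.0009. This is a description of 4 libraries of 1 group, with no test.

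Transcript length varied together with these positions. The longest annotated transcript had a median of 4764 bases over these members and of 3165 bases over all genes at that level. All genes over 6000 bases had medians of 0.15, -0.35, 0.17 and -0.10 in replicates 1 to 4, close to the 0.23, -0.34, 0.17 and -0.21 of the 10 members of that length. Genes of up to 2000 bases had medians of -0.11, 0.04, -0.03 and 0.08. After the median of all genes of the same length class was subtracted, the median member still lay at 0.09, -0.23, 0.09 and -0.06. The part of length in the spread of single members was not tested. Slc9a7, which had the widest spread, has a longest annotated transcript of 2512 bases.

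**Figure D4:**
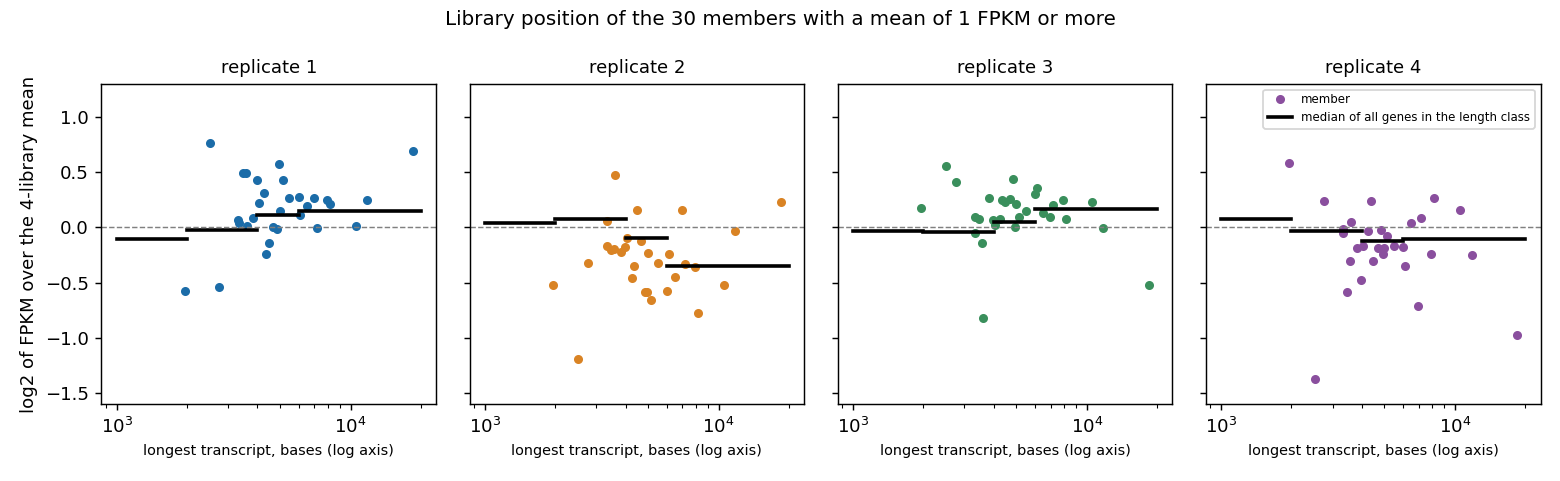
Log2 of FPKM over the mean of the 4 libraries for the 30 members whose mean reached 1 FPKM, against the longest annotated transcript on a log axis, with 1 panel per library. Black bars give the median of all genes in 4 length classes. In replicate 2 most members lie below 0, and the bar for genes over 6000 bases lies at -0.35.

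The kinases that switch the Slc12 carriers were present. WNK kinases activate SPAK (Stk39) and OSR1 (Oxsr1), which phosphorylate Slc12 proteins, and Cab39 and Cab39l bind and activate those kinases. Of 8 such genes 6 lay above 1 FPKM, 0 below and 2 did not pass either way (limma, p adjusted over the whole table). Cab39 measured 49.3 ± 4.04 FPKM, Cab39l 38.0 ± 2.25 and Stk39 37.7 ± 0.112 (SD, n = 4 each). Wnk3 was the lowest by mean at 0.798 ± 0.609 FPKM.

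Adaptors of the carriers, and carbonic anhydrases with related genes, were also measured. Of 9 adaptors and partners 8 lay above 1 FPKM and 0 below. They were led by Ckb, brain creatine kinase, at 1033 ± 124 FPKM (SD, n = 4), Ahcyl1, the activator IRBIT of sodium bicarbonate carriers, at 130 ± 22.3 and Chp1, a cofactor of Slc9 proteins, at 44.8 ± 4.25, and Chp2 was lowest at 0.745 ± 0.237. Of 9 carbonic anhydrases and related genes, 7 lay above and 1 below. Car2 measured 312 ± 12.9 FPKM, Car11 46.0 ± 3.0 and Car14 42.6 ± 2.74, while Car9, the lowest gene of the list, was listed at 0 except in replicate 3, at 0.512.

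Other exchangers of the same ions were uneven. Of 8 genes 4 lay above 1 FPKM, 3 below and 1, Slc9c1, was listed at 0. Clcn3, a chloride proton exchanger of endosomes, measured 28.7 ± 3.55 FPKM, Clcn7 of lysosomes 8.01 ± 0.928 and Xpr1, the phosphate exporter, 6.51 ± 1.92 (SD, n = 4). All 6 genes of inherited brain calcification, in which phosphate carriers and vessel genes are known to take part, lay above 1 FPKM. By mean Slc20a2 and Jam2, at 11.2 ± 1.78 FPKM, were the highest, then Xpr1, and Pdgfrb was the lowest at 3.09 ± 1.04. The order of the first 2 rested on replicate 1: without it Slc20a2 had a mean of 10.6 and Jam2 of 10.8 FPKM. Myorg, listed under its older symbol AI464131, measured 4.65 ± 0.513 FPKM. These lists were chosen for known function, and their counts stand beside the 47.7% of all genes above 1 FPKM with no test of the lists.

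**Figure D5:**
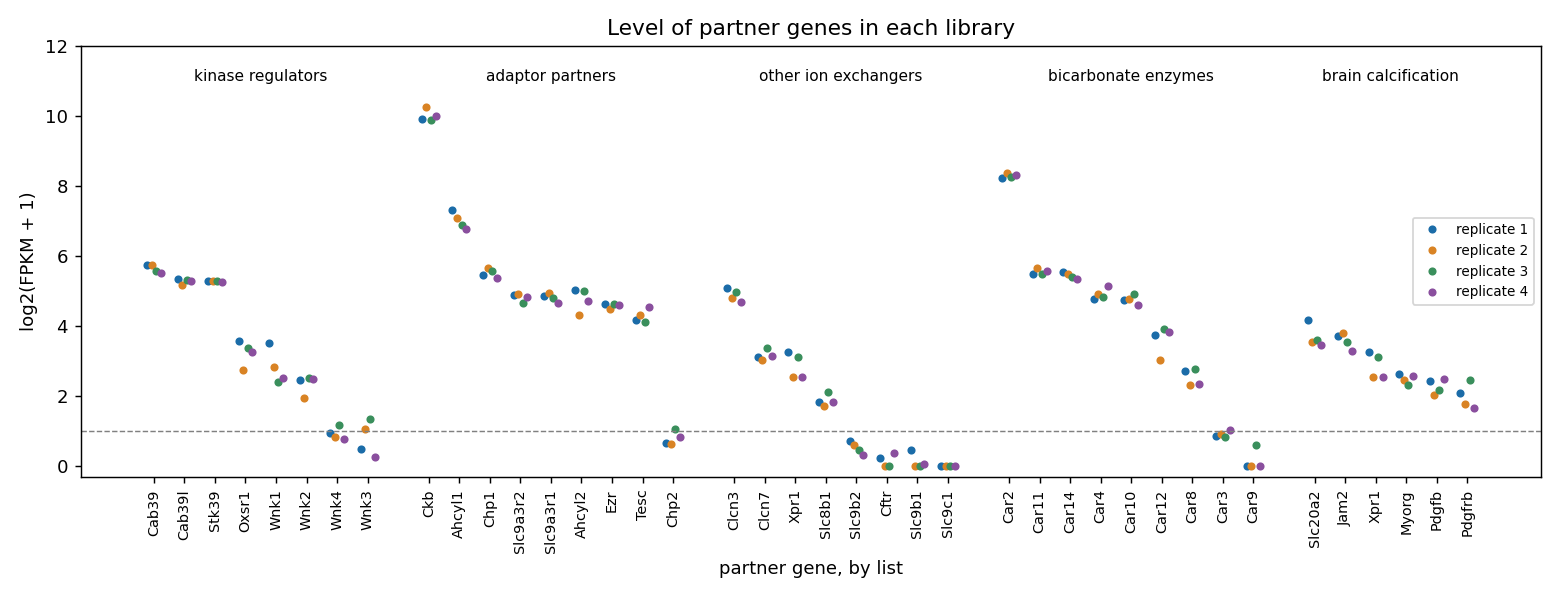
Level of partner genes as log2(FPKM + 1) in 5 lists, 1 point per library, with a dashed line at 1 FPKM. Ckb, Car2 and Ahcyl1 are the highest, and Slc9c1 lies at 0.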

How the data were processed

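Per the labels, poly(A) RNA of 4 laser-captured samples was purified with a Zymo kit and converted to libraries with an NEBNext kit. The authors deposited FPKM for 46072 genes. Tools listed in the submitters' processing notes are HISAT2 2.2.1 and StringTie 2.2.1, besides bcl2fastq 2.20 and SAMtools, with the build GRCm38. Annotation release, strand setting and multi-mapped reads: not given in the sources used here. Low values gave whole reads for 24.2% to 43.7% at the best step (within 0.02), so read counts were not recovered. Columns were matched to samples by library name, and 0 were left out.

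Values were analysed as log2(FPKM + 1) with limma 3.58.1 in R 4.3.3, using its moderated 2-sided test, a trend of variance on mean and the 25206 genes above 0 in any library, tested on simulated data. Genes were set against 1 FPKM, against the pan-endothelial median of the library, and against the second member of 12 pairs. Members, lists and pairs were chosen with earlier results of these data known. The finite prior, the length classes, the limits for CG-rich windows and the promoters printed were chosen after seeing the data. The rule for named genes takes every member, with the value in each library for means of at least 5 FPKM, the highest of each family, members of the pairs, Slc4a1, Slc12a1 and Slc34a1, and of each partner list the 3 highest genes and the lowest. GENCODE M21 (GRCm38) supplied positions, exon overlaps and lengths of transcripts, and it lacks the 2nd identifier of Slc26a6. The values of 3 members, and of the 3 pairs that hold them, are not reported here, though the counts and sums include them. Alternatives covered pseudocounts, filters, level, scaling, trend, reference and each library left out. Figures were drawn with matplotlib 3.10.9.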

Additional observations from a re-analysis of the deposited data

Results flagged for a closer look

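Of 48 members above 0 in some library and 9 summed levels checked for a library far from the others (Dixon's rule for 4 values), 4 members met it. Chance flags about 1 in 20 groups of measured values, a rate that does not hold for members listed at 0 in several libraries. Slc20a2 reached 17.2 FPKM in replicate 1, far above the other 3 libraries. Slc9a3 reached 0.384 FPKM in replicate 2 and Slc26a3 0.238 FPKM in replicate 4. Slc26a9 was at 0.0238 FPKM in replicate 3 and listed at 0 in the others. Slc26a3 was listed at 0 in 2 libraries. A gene above 0 in 1 library alone, as Slc26a9, meets the rule by construction. Slc9a3, Slc26a3 and Slc26a9 lay below 1 FPKM in every library.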

How the results depend on the processing

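No paired analysis was possible because all libraries form 1 group. The alternatives gave 323 same verdicts on the counts, pairs and sums, 9 counts or shares that moved and 1 pair that newly passed. Members below 1 FPKM numbered 17, but 10 with only genes of a mean of at least 0.1 FPKM (fewer genes tested), 10 with rescaling and 10 at a level of 0.5 FPKM. Leaving out each library gave 23 to 25 members above and 14 to 16 below 1 FPKM, and 22 of the 26 and 13 of the 17 calls were kept in every such fit. Slc8a1 minus Slc8a2 passed without replicate 4 at 0.50 (adjusted p = 0.0262). At 2 FPKM, 1 adaptor, 2 carbonic anhydrases and 2 kinases lay below, and with each library left out, 0 to 1 adaptors lay below 1 FPKM (1 without replicate 3). With mitochondrial genes left out of the denominator, the share of Slc24 was 0.00596% and that of Slc26 0.00226%. Single members changed sign as follows, on the log2 scale. Against 2 FPKM they were Slc12a7 (-0.52), Slc24a4 (-0.15), Slc26a10 (-0.17), Slc4a7 (-0.26) and Slc8a1 (-0.58). Against 0.5 FPKM they were Slc26a2 (0.37), Slc26a7 (0.023), Slc8a2 (0.10) and Slc9a2 (0.12). With rescaling they were Slc26a2 (0.59), Slc26a7 (0.081), Slc8a2 (0.20) and Slc9a2 (0.23). Against the pan-endothelial mean they were Slc12a4 (-0.093), Slc12a9 (-0.32), Slc4a5 (-0.38) and Slc9a8 (-0.36). Slc8a1 against 1 FPKM turned to -0.048 and -0.065 at pseudocounts of 0.1 and 0.01. Leaving out each library gave -0.14 to 0.13 for Slc8a1 and -0.11 to 0.044 for Slc26a2 against 1 FPKM, and -0.28 to 0.15 for Slc24a5 and -0.018 to 0.22 for Slc4a5 against the pan-endothelial median. The cause was not tested. Read depth is unknown, so how far it limits the low members cannot be given.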
